A study of Mus musculus with 3 samples.

Results

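Antisense noncoding genes, and the coding genes that they overlap on the other strand, were described in 3 RNA-seq libraries of wild-type control cortical neurons from mouse. The members were the genes whose transcripts in the deposited table carry the type antisense in GENCODE mouse release M21. They numbered 1522 of the 27480 genes of the table that matched this annotation, with 2133 transcript rows, and 5 further antisense genes were left out of the set and are not reported here. For 3 members the table's locus and that of the annotation did not overlap or lay on another strand, so 1519 had a value. A coding gene overlapped 1322 of these on the opposite strand, which gave 1231 distinct sense partners. For the 137 antisense genes that overlapped several coding genes, the one with the longest overlap was taken as the partner. The remaining 197 antisense genes overlapped no coding gene of the table on the other strand. The 3 libraries are 1 group, called replicates 1 to 3 as in their titles, and share the genotype WT and the treatment label CON, so no treatment or genotype was compared. The labels name neither cultures nor animals, so p-values measure only the spread between these samples, which may be technical.

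An antisense gene is transcribed from the strand opposite to another gene, so that the 2 transcripts can share sequence in complementary form. Such RNAs are often spliced and polyadenylated, and many start near the promoter of the coding gene or run through its body. Known examples act on the other gene by silencing or opening its chromatin, by interfering with its transcription, or by pairing with its mRNA. In the developing forebrain, several genes for transcription factors carry a named antisense gene, Dlx1, Emx2, Pax6 and Zeb2 among them.

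The DNA around the transcription start is shown first for 6 antisense genes, because the share of expressed antisense genes differed with the CpG content of this window in the results. Each window runs from 250 bases before to 50 after the start of the transcript that carries the gene's value, on the antisense gene's own strand in GRCm38, with every CpG dinucleotide in capitals. A window was called CpG-rich where at least 50% of its bases were G or C and the CpG count was at least 0.6 of that expected from the C and G content. The Sp3os window (chr2:72979174-72979473, plus strand) held 45 CpG at a GC content of 78.3% and the Rab10os window (chr12:3235254-3235553, plus strand) 13 CpG at 52.3%. Both genes were expressed and both windows were CpG-rich.
Sp3os: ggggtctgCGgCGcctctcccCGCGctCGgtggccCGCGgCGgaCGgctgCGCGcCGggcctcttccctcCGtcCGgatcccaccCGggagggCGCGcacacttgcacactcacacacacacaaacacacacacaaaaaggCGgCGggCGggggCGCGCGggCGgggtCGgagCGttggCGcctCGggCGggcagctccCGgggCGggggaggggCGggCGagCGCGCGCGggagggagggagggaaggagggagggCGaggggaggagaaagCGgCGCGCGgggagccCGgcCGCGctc
Rab10os: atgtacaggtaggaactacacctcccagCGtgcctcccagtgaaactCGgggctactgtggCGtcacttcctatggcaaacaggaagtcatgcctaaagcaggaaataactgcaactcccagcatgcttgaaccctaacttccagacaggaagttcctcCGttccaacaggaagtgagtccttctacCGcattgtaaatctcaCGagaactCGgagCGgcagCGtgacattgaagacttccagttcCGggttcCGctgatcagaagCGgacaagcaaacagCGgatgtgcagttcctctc
Dlx1as and A830082K12Rik were also expressed, and the windows of the transcripts that carry their values were not CpG-rich. For A830082K12Rik this covers only 1 of its annotated starts. The Dlx1as window (chr2:71537842-71538141, minus strand) held 10 CpG at 39.7% GC, and that of A830082K12Rik (chr13:78202124-78202423, plus strand) 7 CpG at 46% GC. These CpG counts were 0.85 and 0.47 of those expected, so the Dlx1as window missed only the GC minimum.
Dlx1as: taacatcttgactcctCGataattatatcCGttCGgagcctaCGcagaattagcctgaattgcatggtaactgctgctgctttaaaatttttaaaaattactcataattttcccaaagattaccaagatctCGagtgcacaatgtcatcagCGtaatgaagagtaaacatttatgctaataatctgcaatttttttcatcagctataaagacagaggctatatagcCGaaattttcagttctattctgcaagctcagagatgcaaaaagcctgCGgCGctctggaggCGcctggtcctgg
A830082K12Rik: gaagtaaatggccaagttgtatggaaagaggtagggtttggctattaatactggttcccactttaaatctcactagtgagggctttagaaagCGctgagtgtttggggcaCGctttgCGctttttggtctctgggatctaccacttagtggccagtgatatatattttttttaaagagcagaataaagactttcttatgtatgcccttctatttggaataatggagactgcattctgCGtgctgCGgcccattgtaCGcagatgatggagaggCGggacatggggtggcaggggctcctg
Nespas and Uchl1os had CpG-rich windows and almost no reads. The Nespas window (chr2:174295387-174295686, minus strand) held 18 CpG at 59% GC, and the Uchl1os window (chr5:66676448-66676747, minus strand) 29 CpG at 67.3% GC.
Nespas: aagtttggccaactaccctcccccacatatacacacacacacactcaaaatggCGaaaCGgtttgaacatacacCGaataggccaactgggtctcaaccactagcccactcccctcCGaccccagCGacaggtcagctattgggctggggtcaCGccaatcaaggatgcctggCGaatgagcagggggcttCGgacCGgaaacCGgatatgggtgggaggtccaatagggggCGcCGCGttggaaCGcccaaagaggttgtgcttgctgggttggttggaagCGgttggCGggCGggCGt
Uchl1os: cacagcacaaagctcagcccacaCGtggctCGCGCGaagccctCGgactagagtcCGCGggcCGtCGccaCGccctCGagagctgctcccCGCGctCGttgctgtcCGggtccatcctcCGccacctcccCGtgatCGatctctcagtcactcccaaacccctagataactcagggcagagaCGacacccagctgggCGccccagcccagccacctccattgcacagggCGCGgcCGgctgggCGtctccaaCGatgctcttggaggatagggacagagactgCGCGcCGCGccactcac

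Levels were deposited as TPM, a relative abundance per transcript length, and each gene was given the value of its transcript with the most reads, found as TPM times exonic length. TPM times length came in whole multiples of a constant in each library, and these multiples were read as counts. Replicates 1, 2 and 3 held 33699300, 29774597 and 29279493 such reads on coding genes and 40003, 34720 and 35922 on antisense genes. Antisense reads were thus 0.119%, 0.117% and 0.123% of the coding reads. A count of 0 allows up to 3 reads, which at the median exonic length of antisense genes, 942 bases, is 0.062, 0.074 and 0.070 TPM. Such limits cover counting error only. All 8 pan-neuronal, 4 excitatory and 4 inhibitory neuron markers reached 1 TPM, as did 4 of 4 astrocyte, 4 of 4 oligodendrocyte lineage, 1 of 4 microglia, 0 of 4 endothelial and 3 of 4 proliferation markers. Glial markers were thus measured beside those of the labelled neurons. In bulk RNA, fewer cells of a type and less RNA per cell cannot be told apart.

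Most antisense genes were under 0.1 TPM, close to what a count of 0 allows. A gene was called expressed at a mean of at least 1 TPM. By this measure 75 of 1519 antisense genes (4.94%) were expressed, against 44.1% of all genes, 117 of 1464 genes for long intergenic noncoding RNA (7.99%) and 11261 of 18221 coding genes (61.8%). Taken per library, the antisense share was 5.13 ± 0.13% (SD, n = 3). Only 4 antisense genes exceeded 10 TPM, 342 lay between 0.1 and 1 TPM, and 695 lay above 0 but below 0.1 TPM. Reads were present in all 3 libraries for 625 antisense genes, and 407 (26.8%) were listed at 0 in each. The members nearest the minimum were Gm26793 at 1.01 TPM, just inside, and C330011M18Rik at 0.998 TPM, just outside.

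The median antisense gene stood at 0.018 ± 0.004 TPM, the median lincRNA gene at 0.015 ± 0.001 TPM and the median coding gene at 2.86 ± 0.01 TPM. On the log2(TPM + 0.1) scale used for differences from here on, the antisense median lay 4.64 ± 0.06 below the coding median in the 3 libraries (exact sign-flip permutation test, two-sided p = 0.25, the smallest that 3 libraries allow). It lay 0.045 ± 0.036 above the lincRNA median, with 0.087, 0.025 and 0.023 in replicates 1 to 3 (exact sign-flip p = 0.25, n = 3). Sense partners lay above coding genes in general, with a median difference of 0.55 ± 0.03 (n = 3, exact sign-flip p = 0.25), and 934 of the 1322 pairs had a partner at 1 TPM or more.

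**Figure D1:**
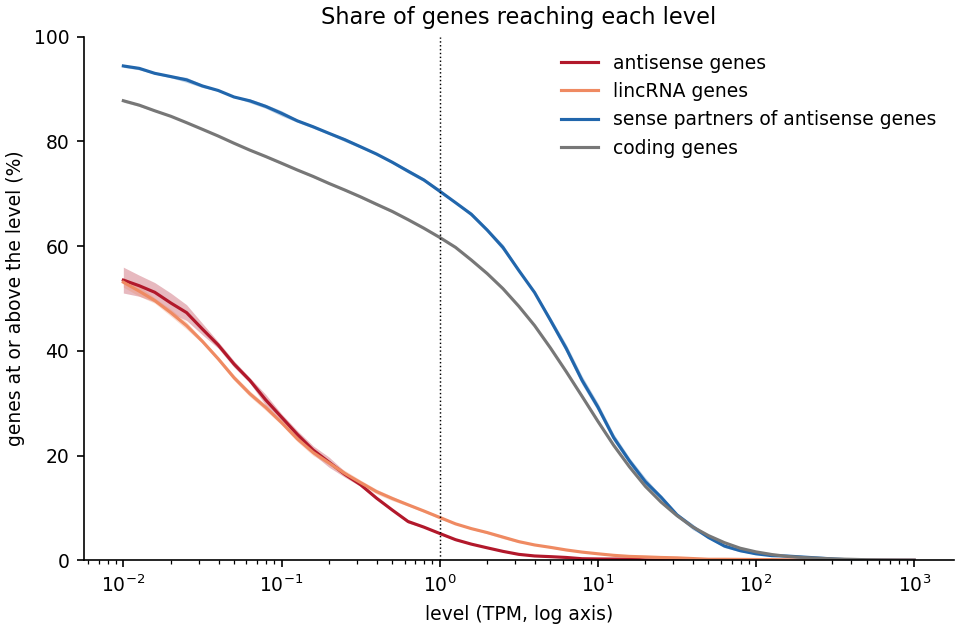
Percentage of genes (vertical axis) at or above each level in TPM (horizontal log axis) for antisense, lincRNA and coding genes and for the sense partners of antisense genes; lines are means and bands the SD over 3 libraries, and the dotted line marks 1 TPM. The antisense line crosses 1 TPM at 5.13%, below the lincRNA line at 8.20% and the coding line at 61.7%, while the partner line lies above the coding line there.

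Antisense values were small beside those of the exons that they overlap. Among antisense genes with at least 90% of their exonic bases inside exons of a partner at 10 TPM or more, the 21 values had a median of 0.053% of the partner's TPM, the highest was 0.51%, and 8 were listed at 0. For 121 antisense genes without any exon overlap and a partner of the same minimum level, the median was 0.039%. The 2 medians were close, with and without shared exonic bases. Of the 75 expressed antisense genes, 71 had at least 90% of their 50-base stretches unique in GRCm38. The exceptions were 1110002L01Rik, the lowest at 70.7%, A930015D03Rik, Gm13563 and E430024P14Rik. Another gene's exons overlapped 7 of the 75 on the same strand (Tug1, Gm20687, Tmem147os, Zfhx2os, 1110002L01Rik, Rab26os and Zeb2os), and their values may include that gene's reads.

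The 4 highest antisense genes were 1500015A07Rik, Tug1, 4933431E20Rik and Dlx1as. 1500015A07Rik (ENSMUSG00000098702.1, chr18:61726390-61735917, plus strand) had 27.4, 18.5 and 29.3 TPM in replicates 1 to 3, with 1251, 712 and 1192 reads. Its partner in tail-to-tail orientation, the actin filament-associated protein gene Afap1l1, had 0.085, 0.249 and 0.102 TPM. Replicate 2 was lowest for the antisense gene and highest for Afap1l1, and the antisense gene was above it in each library (6.71 ± 0.85 log2 units; n = 3, exact sign-flip p = 0.25).

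Tug1 (ENSMUSG00000056579.18, chr11:3639785-3649673, minus strand), a widely expressed long noncoding RNA gene, had 20.9, 23.6 and 18.2 TPM. It overlaps the start of Morc2a, an ATPase gene of chromatin silencing, by 180 bases. Morc2a had 11.8, 11.9 and 11.7 TPM, below Tug1 in each library. The difference was 0.81 ± 0.17 log2 units, and Morc2a varied less between libraries than Tug1. 4933431E20Rik (chr3:107888850-107896213, minus strand) had 18.1, 19.3 and 18.3 TPM and spread little between libraries. It shares its longest overlap with Eps8l3, an EPS8-like adaptor gene, at 0.009 ± 0.001 TPM, and at its start it overlaps the glutathione transferase gene Gstm5 head-to-head over 393 bases. Gstm5 stood at 63.0 ± 1.18 TPM, so the same antisense gene differed by 7.41 ± 0.04 log2 units from Eps8l3 and by -1.76 ± 0.07 from Gstm5. With a pseudocount of 1 the difference from Eps8l3 was 4.27.

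Dlx1as (ENSMUSG00000084946.2, chr2:71516454-71537891, minus strand) had 18.4, 19.4 and 12.5 TPM, with 611, 542 and 368 reads. It overlaps the mitochondrial methionine aminopeptidase gene Metap1d over the longest stretch, and it contains Dlx1, a homeobox gene of GABAergic interneuron development. Dlx1 stood at 7.15, 6.19 and 7.44 TPM and Metap1d at 3.58, 3.14 and 4.40 TPM. Dlx1as was thus lowest in replicate 3 while both coding genes were highest there. The difference from Dlx1 was 1.24 ± 0.46 and that from Metap1d 2.13 ± 0.58 log2 units. Both depended on the transcripts taken: with sums over the transcripts of a gene, which count shared reads repeatedly, Dlx1as lay below Dlx1, at -0.37, and the difference from Metap1d was 0.33. With the transcript of the highest TPM the latter was 1.4. The summed level of the 4 inhibitory markers, Dlx1 among them, was also lowest in replicate 3, at 140, 173 and 106 TPM, and its part in the Dlx1as values was not tested.

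Further expressed antisense genes had a longest-overlapping partner under 1 TPM. E130307A14Rik had 7.91, 7.20 and 7.70 TPM and its partner Traf3ip2, an adaptor of interleukin-17 signalling, 0.088 ± 0.024 TPM. Gm20687 had 7.78, 7.48 and 8.44 TPM against 0.94 ± 0.06 TPM for the homeobox gene Zfhx2, which lies inside it. It also overlaps Ap1g2 over 409 bases, which stood at 1.96 ± 0.12 TPM. Tmem147os had 7.42, 5.66 and 6.50 TPM and spans Gapdhs, the glycolytic enzyme gene of sperm, which stood at 0.021 ± 0.018 TPM. In the pairs with Traf3ip2, Zfhx2 and Gapdhs every library of the antisense gene was above every library of the partner. A930015D03Rik stood at 3.14 ± 0.68 TPM around the class I histocompatibility gene H2-T24 at 0.003 ± 0.006 TPM, though only 73.8% of its 50-base stretches were unique. Its exons share 0 bases with H2-T24 but 1003 with H2-T22, at 0.97 ± 0.10 TPM. The difference was 4.95 ± 0.22 log2 units from H2-T24 and 1.59 ± 0.37 from H2-T22. Gm15690, inside the liver serine dehydratase gene Sds, had 2.62, 3.16 and 3.14 TPM while Sds was listed at 0 in each library. 2900009J06Rik stood at 2.52 ± 0.07 TPM opposite Acmsd, an enzyme gene of tryptophan breakdown, at 0.066 ± 0.027 TPM.

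A different group of expressed antisense genes lay opposite active genes and stayed below them. A830082K12Rik (chr13:78198017-78279391, plus strand) had 4.30, 4.82 and 4.66 TPM, and its head-to-head partner Nr2f1, a nuclear receptor gene of cortical patterning, 23.0, 25.9 and 25.5 TPM. Replicate 1 was lowest and replicate 2 highest for both genes, and the difference of -2.41 ± 0.02 log2 units hardly varied. The A830082K12Rik transcript that carries this value starts outside Nr2f1, though the gene has an annotated start 19 bases from one of Nr2f1's. Gm16536, a single-exon gene inside the beta-secretase gene Bace1, stood at 3.73 ± 0.34 TPM, and Bace1 at 17.7 ± 1.06 TPM. Gt(ROSA)26Sor, the Rosa26 locus used for transgenes, had 5.38 ± 0.32 TPM and its tail-to-tail partner Thumpd3, an RNA methyltransferase gene, 14.4 ± 1.01 TPM. The coding gene of each of these pairs was above the antisense gene in every library, without overlap. 1700052K11Rik stood at 3.61 ± 0.23 TPM opposite the chromatin assembly kinase gene Tlk2 at 10.8 ± 1.22 TPM. Gm3693 lies within Slc8a3, a sodium-calcium exchanger gene, and stood at 2.45 ± 0.35 TPM against 5.69 ± 0.18 TPM. Tlk2 and Slc8a3 were likewise above their antisense genes in each library. Sp3os, at 3.85 ± 0.15 TPM, overlaps 2 coding genes. It was above the coding model Gm11084, listed at 0, 0 and 0.32 TPM, and 1.69 ± 0.12 log2 units below the zinc finger factor gene Sp3 at 12.6 ± 0.58 TPM. Gm13375 at 7.28 ± 0.83 TPM and 2810001G20Rik at 6.78 ± 1.03 TPM were the highest of the 10 expressed antisense genes without a partner.

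**Figure D2:**
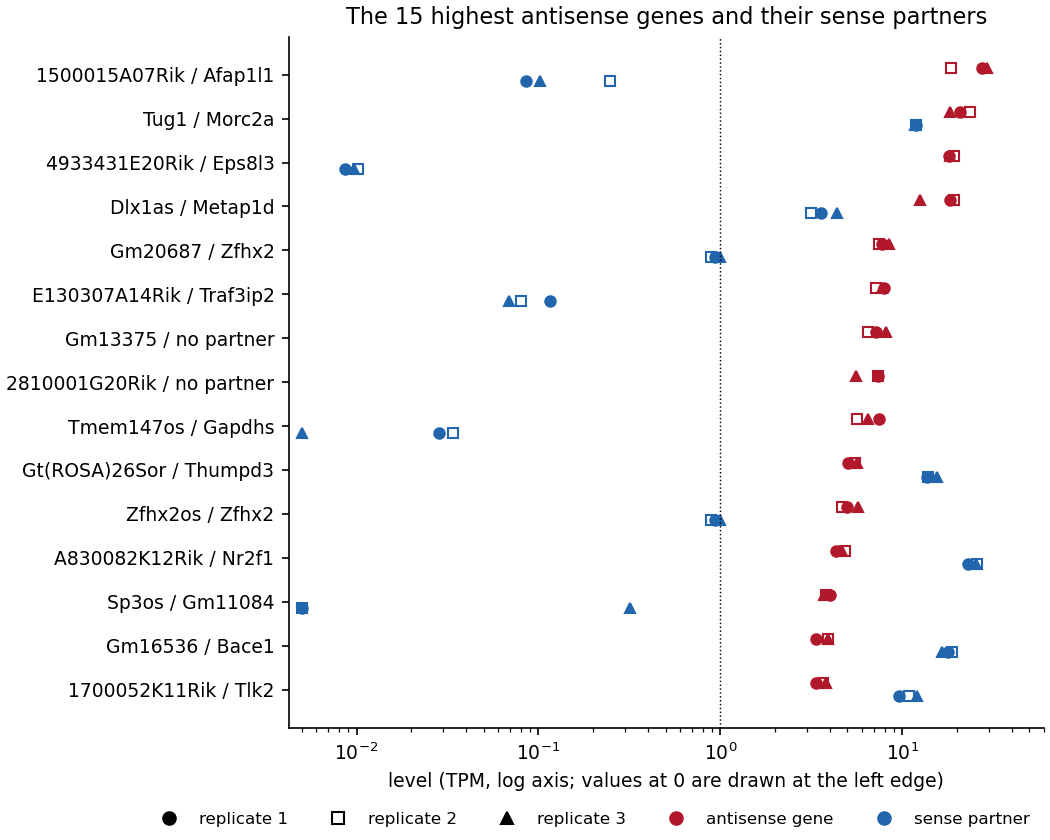
Level in TPM (horizontal log axis) of the 15 antisense genes with the highest means and of their longest-overlapping sense partners, with 1 symbol per replicate and the dotted line at 1 TPM; values at 0 are drawn at the left edge. The antisense values lie between 3.34 and 29.3 TPM in every library, while the partners range from 0 to 25.9 TPM.

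Over all pairs, the antisense gene was usually far below its partner. It was above the partner in each library in 59 of 1322 pairs (4.46%) and below in each in 1167, and 96 pairs had mixed or equal signs. Of 1607 overlapping pairs of 2 coding genes on opposite strands, the gene with the lower start coordinate was above the other in each library in 51.2%. That order is arbitrary with respect to level, so this share is only a reference for pairs of the same gene class. The median pair difference was -4.54 ± 0.03 log2 units (exact sign-flip p = 0.25, n = 3). Among the 65 pairs with an expressed antisense gene, 22 had it above the partner in each library, 40 below and 3 mixed. In 19 of those 22 pairs the partner itself was under 1 TPM. The antisense gene was expressed in 45 of the 934 pairs with an expressed partner (4.82%) and in 20 of the 388 others (5.15%), shares close to each other.

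How the genes of a pair lie to each other went with the level of the antisense gene. Antisense genes wholly inside their partner, the commonest arrangement with 667 pairs, were the least often expressed, in 13 pairs (1.95%). Of 356 head-to-head pairs, whose overlap includes the starts of the transcripts, 29 had an expressed antisense gene (8.15%). Tail-to-tail pairs, which overlap at their ends, had 17 of 254 (6.69%), and antisense genes that contain their partner 6 of 45 (13.3%). Taken per library, the head-to-head share exceeded the inside share by 6.20 ± 1.22 percentage points (exact sign-flip p = 0.25, n = 3). The median difference from the partner was -5.28 ± 0.08 for inside, -4.53 ± 0.11 for tail-to-tail, -3.57 ± 0.06 for head-to-head and -1.94 ± 0.54 for partner-inside pairs. The head-to-head difference lay 1.71 ± 0.02 log2 units above the inside difference in the 3 libraries, larger than the SD of each (n = 3, exact sign-flip p = 0.25). Median partner levels were 5.09 ± 0.15, 4.05 ± 0.03, 3.62 ± 0.09 and 0.94 ± 0.06 TPM in the same order, so the partners differed as well. Of pairs whose starts lay within 1 kb, 36 of 413 had an expressed antisense gene (8.72%), against 29 of 909 with starts farther apart (3.19%).

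Antisense and partner level went together in head-to-head pairs. Spearman's rho across these 356 pairs was 0.37 ± 0.03 over the 3 libraries. It was 0.03 ± 0.03 across 667 inside pairs, -0.05 ± 0.02 across 254 tail-to-tail pairs and 0.06 ± 0.03 across 45 partner-inside pairs. These values describe pairs of the same libraries, and pairs are not independent replicates. Within head-to-head pairs rho was 0.37 ± 0.02 with starts within 1 kb (270 pairs) and 0.23 ± 0.07 with starts farther apart (86 pairs). It was 0.40 ± 0.01 where exons overlapped (280 pairs) and 0.22 ± 0.12 where they did not (76 pairs), and within inside pairs with starts within 1 kb it was 0.21 ± 0.04 (136 pairs). When head-to-head pairs were split by partner level into 3 parts of equal size, the antisense median was 0.006 ± 0.007, 0.081 ± 0.008 and 0.153 ± 0.009 TPM from low to high partners. The expressed share in these parts was 5.04 ± 0.84, 6.44 ± 0.49 and 13.0 ± 1.76%. CpG-rich antisense starts made up 31.9, 44.5 and 45.8% of the same parts, and their part in the rise was not tested. Split the same way, the expressed share was 11.0 ± 0.68, 3.14 ± 1.36 and 7.54 ± 1.37% in tail-to-tail pairs. In inside pairs it was 2.09 ± 0.52, 2.10 ± 0.26 and 1.65 ± 0.52%.

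**Figure D3:**
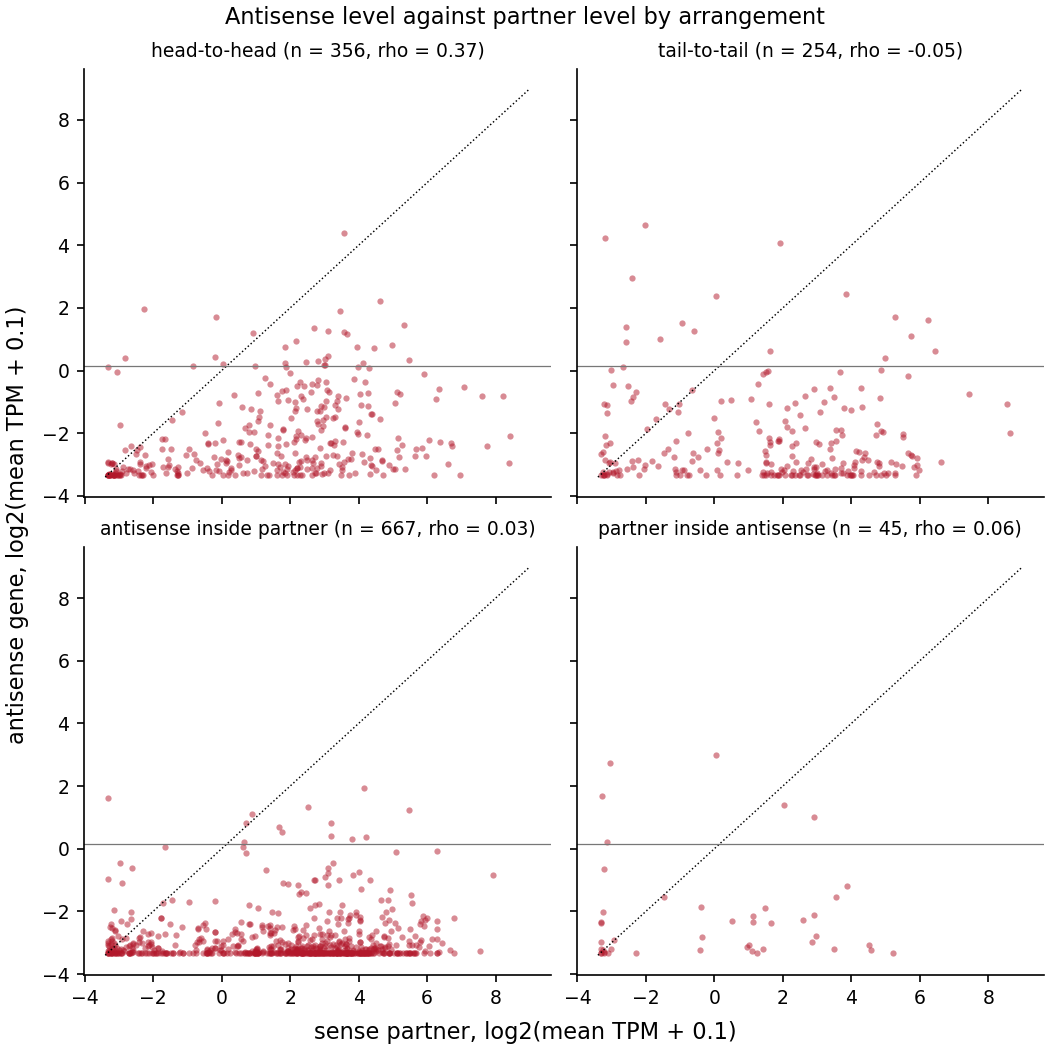
Antisense level against sense partner level, each as log2(mean TPM + 0.1), with 1 point per pair and 1 panel per arrangement; the dotted diagonal marks equal levels and the grey line 1 TPM for the antisense gene. Most points lie below the diagonal in each panel, and rho is 0.37 in the head-to-head panel against -0.05 to 0.06 in the others.

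CpG content at the start also went with expression of antisense genes. Of the 75 expressed antisense genes, 45 had a CpG-rich start window (60%), against 356 of 1444 others (24.7%), 9584 of 18221 coding genes (52.6%) and 8012 of 11261 expressed coding genes (71.1%). Read the other way, 45 of 401 antisense genes with a CpG-rich window were expressed (11.2%) and 30 of 1118 without (2.68%). The per-library difference was 9.06 ± 0.83 percentage points (exact sign-flip p = 0.25, n = 3). Within head-to-head pairs it was 8.36 ± 0.91 points, with 19 of 145 against 10 of 211. The CpG-rich share itself differed between arrangements, at 72 of 667 inside (10.8%), 145 of 356 head-to-head (40.7%), 99 of 254 tail-to-tail (39%) and 12 of 45 partner-inside pairs (26.7%). Among tail-to-tail pairs, 12 of 99 genes with CpG-rich starts were expressed and 5 of 155 others, and inside the partner 3 of 72 and 10 of 595. The Spearman coefficient of head-to-head pairs was 0.36 ± 0.03 with CpG-rich and 0.34 ± 0.03 with other antisense starts. The Sp3os, Rab10os, Nespas and Uchl1os windows printed above belong to the CpG-rich class, which thus also holds genes with few or no reads in a library.

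**Figure D4:**
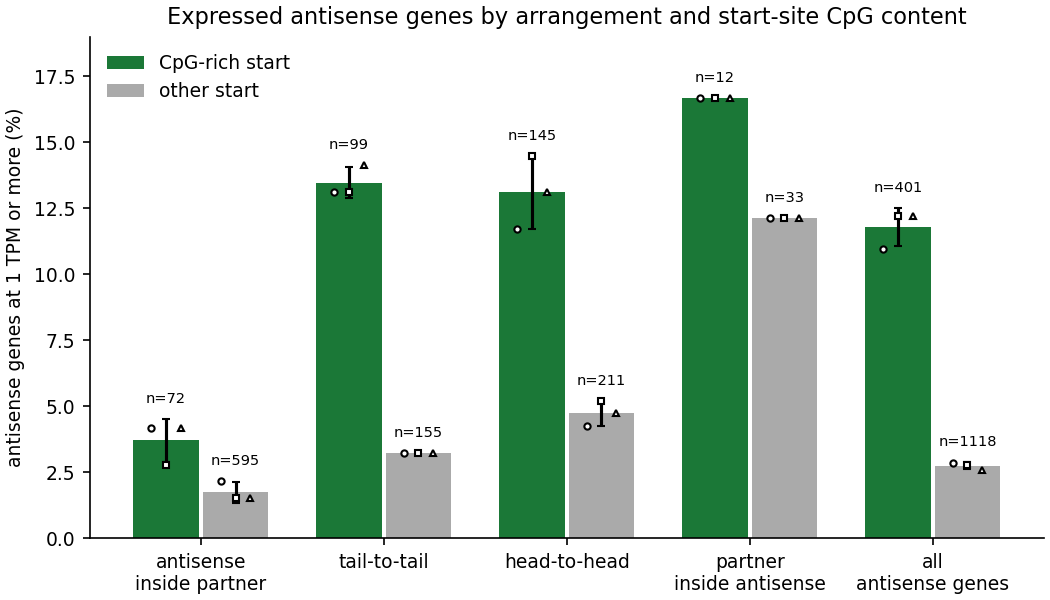
Percentage of antisense genes at 1 TPM or more (vertical axis, from 0) with CpG-rich or other start windows, for each arrangement and for all antisense genes; bars are means and error bars the SD over 3 libraries, symbols are replicates 1 to 3, and n is the number of genes. CpG-rich bars are higher in each group, with 11.8 ± 0.72% against 2.74 ± 0.14% over all antisense genes, and the partner-inside bars rest on 12 and 33 genes.

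Expressed antisense genes had longer annotated transcripts than the rest. Their median exonic length was 1434 bases against 921 for the other 1444, and their gene spans had medians of 9254 and 6116 bases. The median number of exons was 2 in both sets, and single-exon transcripts made up 16% and 7.06%. The median number of transcripts per gene was 2 and 1. Lengths are those of the transcript with the most reads, a choice that can favour longer ones where a gene has several. The part of this choice in the length difference was not tested.

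The 15 highest partners stood between 103 and 396 TPM and had 16 antisense genes, all under 1 TPM and below the partner in each library, with a median of 0.125 TPM. Since 4.82% of antisense genes with an expressed partner were expressed, 0 of 16 is near that background. These partners include the synaptic vesicle genes Syp and Syt4, the microtubule gene Map2, the G protein genes Gnas and Gnao1 and the deubiquitinase gene Uchl1. Gm10558, opposite Map2 at 187 TPM, stood at 0.004 TPM, while 4930593C16Rik opposite Ctnnb1 and Gm15942 opposite Ncald were listed at 0 in each library. Nespas, the imprinted antisense gene of the Gnas locus, had 0.078, 0.113 and 0.068 TPM from 9, 11 and 7 reads, while Gnas had 217, 216 and 210 TPM. Uchl1os, known for raising translation of Uchl1 mRNA, had 4, 3 and 0 reads against 380, 341 and 290 TPM of Uchl1. With so few reads, differences between libraries in Nespas or Uchl1os were not detectable at this depth.

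Antisense genes of developmental transcription factors formed a list of 37 names, of which 8 were members. Expressed were 3 of the 8 (37.5%), against 4.94% of all antisense genes: Dlx1as, Zfhx2os and Zeb2os. Zfhx2os is among them only through a transcript of uncertain length, as its other transcript stood at 0.82 ± 0.19 TPM. Zfhx2os had 4.98, 4.69 and 5.71 TPM and Zfhx2 0.94 ± 0.06 TPM, but the length of its transcript is uncertain and its exons overlap those of Gm20687. Taken from transcripts with whole reads only, an alternative chosen after seeing the data, its difference from Zfhx2 turned from 2.32 ± 0.07 to -0.21 ± 0.26 log2 units, and with sums over transcripts it was 1.42. Zeb2os starts 62 bases from a start of Zeb2, a gene of neural and glial development, and had 1.78, 1.61 and 1.58 TPM against 8.81, 10.4 and 7.97 TPM. Emx2os had 0.51, 0.65 and 0.50 TPM and its head-to-head partner Emx2, a cortical patterning gene, 2.78, 3.44 and 4.49 TPM. The 2 genes of this pair were highest in different libraries. Over the list, Dlx1as and Zfhx2os were above the gene that they are named after in each library and the other 6 below, though not Dlx1as with sums over transcripts or Zfhx2os with whole-read transcripts. The median difference from the gene in the name was -1.96 log2 units. From the longest-overlapping partner, which 7 of the 8 have, it was -1.62, beside -4.54 over all pairs. The -1.62 is the value of Nkx2-2os, at 0.003 TPM against 0.23 TPM of Nkx2-2, where the pseudocount of 0.1 shrinks the difference. Of the 8 genes in the names, 4 reached 1 TPM. Whether the list lies closer to its partners than other antisense genes was not tested.

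A second list held the 179 other antisense genes named after a coding gene with the ending os, as or ot. Expressed were 11 (6.15%) and listed at 0 were 46 (25.7%), shares near the 4.94% and 26.8% of all antisense genes. The median level was 0.61% of the named gene. In each library 8 were above and 160 below the named gene, and 11 were mixed or equal, with a median difference of -4.33 log2 units from the gene in the name. The 4 highest were Tmem147os, Sp3os, Rab10os and Brip1os. Tmem147os lies 45 bases from Tmem147, a membrane protein gene of the endoplasmic reticulum at 35.3 ± 5.66 TPM, and differed from it by -2.42 ± 0.16 log2 units, or by -1.60 with sums over transcripts. Rab10os had 3.31, 2.78 and 2.87 TPM and overlaps the end of Rab10, a vesicle traffic GTPase gene at 69.0, 83.6 and 72.6 TPM. Replicate 2 was lowest for Rab10os and highest for Rab10. Their difference of -4.61 log2 units was -0.70 with sums and -2.79 with the transcript of the highest TPM. Brip1os had 2.63, 1.85 and 3.11 TPM and lies 177 bases from the DNA repair helicase gene Brip1, which stood at 0.16, 0.093 and 0.15 TPM. Its longest-overlapping partner Ints2, a subunit gene of the Integrator complex, had 4.02 ± 0.54 TPM, and Med13, which it also overlaps, 7.85 ± 0.91 TPM. Brip1os thus differed by 3.47 ± 0.21 log2 units from the gene of its name and by -0.67 ± 0.54 from Ints2. The first was 1.62 with a pseudocount of 1, and the second was -3.05 with sums and -0.36 without replicate 2. A list of textbook antisense genes held 2 members, Nespas and Uchl1os, both under 1 TPM like most antisense genes.

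**Figure D5:**
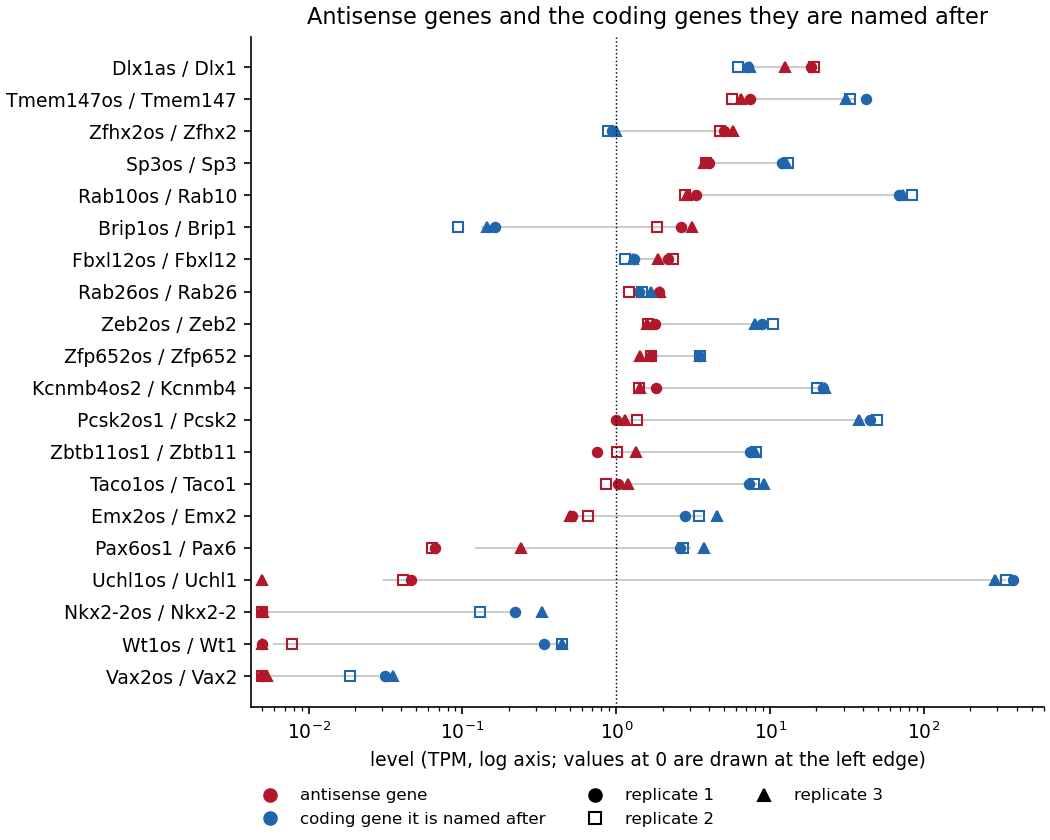
Level in TPM (horizontal log axis) of antisense genes and of the coding genes in their names, with 1 symbol per replicate, grey lines joining the means and the dotted line at 1 TPM; values at 0 are drawn at the left edge. Shown are the expressed genes of both lists, the other transcription factor members and Uchl1os; the antisense gene is higher in each library in Dlx1as, Zfhx2os, Brip1os and Fbxl12os, Rab26os and its coding gene change order between libraries, and the coding gene is higher in the other pairs. With sums over transcripts, Dlx1as lies below Dlx1.

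Between libraries, the expressed antisense genes varied more than expressed coding genes, which also had more reads. The median SD of log2(TPM + 0.1) was 0.18 for the 75 antisense genes at a median of 151 reads, 0.18 for 117 lincRNA genes at 190 reads and 0.11 for 11261 coding genes at 1226 reads. An SD above 0.5 was found in 5 of the 75 antisense genes (6.67%), 3 of the 117 lincRNA genes (2.56%), 70 of the 11261 coding genes (0.62%) and 1.86% of all expressed genes. The 5 antisense genes were Gm11940, A830036E02Rik, Gm15860, Gm15494 and Gm12279. The largest SD was that of Gm11940, inside the keratin gene Krt10, with 2.85, 2.61 and 0.73 TPM from 61, 47 and 14 reads. A830036E02Rik, head-to-head with the keratin gene Krt12 in the same gene cluster of chromosome 11, had 1.77, 2.35 and 5.43 TPM from 310, 347 and 847 reads. Replicate 3 was thus lowest for the first and highest for the second, while Krt10 (1.68, 1.71 and 1.90 TPM) and Krt12 (0.73, 0.76 and 0.87 TPM) changed little. Gm15860, at the start of the chromatin remodeller gene Bcl7a, had 0.65, 1.64 and 0.99 TPM from 14, 30 and 19 reads, and Gm15494 and Gm12279 had 14 and 15 reads in replicate 3.

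Of the 75 expressed antisense genes, 14 were highest in replicate 1, 23 in replicate 2 and 38 in replicate 3 (50.7%). Of all genes at 1 TPM or more, 31.9% were highest in replicate 3. Summed astrocyte markers were also highest there, at 212, 233 and 253 TPM. Most of that sum was Slc1a3, at 165, 185 and 203 TPM, while Aldh1l1 was lowest in replicate 3, at 11.0, 11.8 and 9.63 TPM. Summed oligodendrocyte lineage markers were highest in replicate 3 too, at 48.9, 38.7 and 57.7 TPM. The part of either cell type in these counts was not tested. In 45 pairs with both genes expressed, both were highest in the same library in 21 (46.7%), against 40% of 815 expressed pairs of 2 coding genes, a share near this background.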

How the data were processed

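Total RNA was extracted on columns and libraries were made with a KAPA RNA HyperPrep kit, per the labels' protocols. The submitters' processing notes name build mm10, the read check FastQC 0.11.2, the aligner STAR 2.5.3a and, for counting, featureCounts with Subread 1.4.6. The values used are TPM, which the authors deposited as a single table of 84660 transcripts, and GENCODE mouse M4 is the release that its name and header give. How strand was set in the counting is not given in the sources used here.

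Transcripts were matched by identifier to M21, which is on GRCm38 like mm10. A match was found for 98.1% of rows, and 47 whose locus or strand differed between the releases were dropped. Exonic lengths came from M21, with outer ends moved to those of the table where that made reads whole. Reads were whole to within 0.01 for 98.7% of the 77563 rows above 0, and TPM was kept as the unit because the lengths were partly fitted. Transcripts of a gene share reads, so a gene took the value of its transcript with the most reads.

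Members, gene lists and tests were chosen with earlier results of these data known. Named are the 15 highest antisense genes, the 8 expressed ones farthest above their partner, the 3 highest of each arrangement, the 5 with the largest spread, expressed genes opposite the 15 highest partners (there were none), and the 4 highest of each list. The pair of 1 partner among those 15 is not reported here. Any further gene was picked with its values in view, and so were the comparisons by distance between starts, CpG content and 3 classes of partner level. Differences of log2(TPM + 0.1), with a pseudocount of 0.1, were taken inside each library, given as mean ± SD and tested over the 3 libraries by an exact sign-flip permutation test, two-sided, whose smallest p is 0.25. They understate differences of low genes. Uniqueness was found by searching 50-base stretches, taken every 10 bases, on both strands of GRCm38.

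Alternatives were pseudocounts of 1 and 0.01, other gene values, partners, arrangements and minimum levels, and leaving out each replicate. Read recovery and pair differences were run on simulated data as a check of the arithmetic only. Over 81985 simulated transcripts 100% of reads were recovered, and 1300 pairs made with a difference of -2 log2 units gave -2.00. The recovered difference shows no shrinkage by a pseudocount, so it does not cover low genes, whose differences the pseudocount understates. The read recovery does not measure errors from uncertain transcript lengths. Python 3.11.15, numpy 2.4.6, pandas 2.3.3, scipy 1.17.1, numba 0.67.0 and matplotlib 3.10.9 were used.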

Additional observations from a re-analysis of the deposited data

How the results depend on the processing

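No comparison of treatments or genotypes was possible because the 3 libraries form a single group. Levels near 0 make every difference of medians depend on the pseudocount, and lengths that differ between annotation releases limit single values such as that of Zfhx2os. The median pair difference stayed negative under the 12 alternatives run, from -6.28 to -1.36, and was -4.55 to -4.52 when each replicate was left out. The antisense minus coding median stayed negative from -6.66 to -1.92, and the antisense minus lincRNA median stayed within 0.005 to 0.19.

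The expressed share was 9.22% at a minimum of 0.5 TPM and 2.5% at 2 TPM, and 4.94 to 5.07% without each replicate. Pairs with the antisense gene above its partner numbered 18 of 420 without exon overlap, 22 of 65 with an expressed antisense gene, and 64 to 67 without each replicate. Restricted to expressed antisense genes, which picks high values, the median difference turned to 3.14 (6 partner-inside pairs) and 2.15 (17 tail-to-tail pairs). With sums over transcripts, which count shared reads repeatedly, the expressed head-to-head share was 12.6% and 32 of 76 pairs had both genes highest in the same library. With the highest partner in place of the longest overlap, the expressed partner-inside share was 7.89%.

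Spearman's rho over all pairs was 0.037 with sums, 0.10 with the highest partner, 0.0092 without exon overlap and -0.14 among expressed antisense genes. In head-to-head pairs these settings gave 0.33 with sums, 0.22 without exon overlap and 0.20 among expressed genes, and 0.35 to 0.37 without each replicate. For tail-to-tail pairs rho was -0.080 with sums, -0.011 with the highest partner, -0.20 without exon overlap and -0.30 among expressed genes. For partner-inside pairs it was 0.15 with the highest partner, 0.011 with coding transcripts only, 0.16 without exon overlap and -0.067 among expressed genes.

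Of the named pairs, Zfhx2os against Zfhx2 turned to -0.21 with whole-read transcripts and Dlx1as against Dlx1 to -0.37 with sums. Sums kept the sign but moved 1700052K11Rik against Tlk2 to -5.69, Gm16536 against Bace1 to -5.07, Gm3693 against Slc8a3 to -3.61, Gt(ROSA)26Sor against Thumpd3 to -2.58, Zeb2os against Zeb2 to -4.80, Emx2os against Emx2 to -4.70 and A830036E02Rik against Krt12 to 3.17. A pseudocount of 1 lowered the differences from Traf3ip2 to 2.98, Gapdhs to 2.88, Gm11084 to 2.14, H2-T24 to 2.03, Sds to 1.99, Acmsd to 1.72 and Eps8l1 to 1.08. The Gm11940 difference from Krt10, 0.02 with an SD of 1.11, was -0.34 to 0.66 when each replicate was left out. Apart from the fewer pairs or the sums named, the cause of these changes was not tested.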
